A study of Mus musculus with 11 samples.

Results

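Periportal hepatocyte genes are the genes that hepatocytes express most strongly around the portal vein, where blood enters the liver lobule. The 9 genes described here, Cyp2f2, Hal, Sds, Gls2, Cdh1, Hsd17b13, Ctsc, Ass1 and Aldh1b1, were taken by gene symbol from the deposited count table, and all 9 were present among its 19207 genes. They were chosen by name, with earlier results of these data known. The study sequenced liver RNA from C57BL/6 mice after carbon tetrachloride (CCl4) or oil, in animals lacking Hmgb2 and in wild-type animals. There were 3 libraries from Hmgb2-/- mice given CCl4, 2 from Hmgb2-/- mice given oil, 3 from wild-type mice given CCl4 and 3 from wild-type mice given oil. CCl4 is a solvent that injures the liver, oil is its vehicle, and Hmgb2 encodes a high-mobility group protein that binds and bends DNA. Not given in the sources used here are age, sex, dose, number of injections, the time of killing and the construction of the knockout allele. Whether each library came from its own mouse is not stated, so a p-value measures the spread between these libraries, which may be technical.

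Hepatocytes divide their work along the axis from the portal vein to the central vein. Those at the portal end receive blood rich in oxygen and nutrients and carry out gluconeogenesis, amino acid breakdown and urea synthesis, whereas those at the central end make glutamine and hold most of the drug-metabolising cytochromes P450. Wnt signalling from the endothelium of the central vein switches on the pericentral genes and restrains many periportal ones. CCl4 does its damage after Cyp2e1, a pericentral cytochrome P450, has converted it to a radical, so the injury falls first on the pericentral zone.

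Values are CPM, the counts of a gene relative to its library's total, scaled between libraries by the trimmed mean of M-values (TMM). They are listed in the order of libraries 24, 25 and 15 for CCl4-treated knockout livers, 11 and 12 for oil-treated knockout livers, 4, 5 and 6 for CCl4-treated wild-type livers and 1, 2 and 3 for oil-treated wild-type livers. Library totals lay between 7306082 and 14116886 counts. Hmgb2, the deleted gene, had 4, 5 and 4 counts in CCl4-treated knockout libraries, 0 and 7 in oil-treated knockout libraries, 118, 36 and 71 in CCl4-treated wild-type libraries and 17, 26 and 27 in oil-treated wild-type libraries, so every library matched its genotype label. The tissue label was checked with 9 hepatocyte genes without strong zonation, called unzonated here, with the amino acid breakdown gene Tat among them. Their summed level was 22961 to 27975 CPM in CCl4-treated knockout livers and 29875 to 32310.3 CPM in oil-treated knockout livers. In wild-type livers it was 27963 to 31628 CPM after CCl4 and 24491 to 35069 CPM after oil. The wild-type libraries 5 (CCl4) and 1 (oil) stood apart from the others. Over 11054 genes, their deviations from the gene means rose with GC content, with a Spearman rho of 0.481 for library 5 and 0.503 for library 1. Among the other libraries rho ran from -0.362 (library 2) to 0.147 (library 6), and was -0.321 in library 15 and -0.272 in library 12. Each gene's mean includes all libraries, so these signs are relative. For the 9 genes, calls that changed without libraries 1 and 5 together are given with and without them. Many other values are given with all libraries only.

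All 9 genes passed the filter on low counts, and their smallest count in any library was 155. After CCl4 in wild-type livers, Aldh1b1 was the only one of the 9 that passed the test, and it rose 3.68-fold, a call that held in 9 of 16 alternative analyses. None of the 9 passed the test after CCl4 in knockout livers, between knockout and wild-type livers after CCl4, or between knockout and wild-type livers after oil. The test was edgeR's quasi-likelihood test with Benjamini-Hochberg adjustment over all 16866 tested genes, with a call wherever the adjusted p was below 0.05. In bulk tissue, fewer cells of a type and less RNA per cell cannot be told apart.

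In wild-type livers, CCl4 against oil called 1 of the 9 genes, where 8.48% of all tested genes were called (6.98% higher after CCl4 and 1.51% lower). The median log2 fold change of the 9 was 0.16, beside -0.019 over all tested genes, and 5 were higher and 4 lower. In knockout livers, CCl4 against oil called 0 of the 9, where 0.652% of all genes were called, and 0 of the 9 had an unadjusted p under 0.05, beside 2199 of all 16866 genes. Knockout against wild type called 0 of the 9 after CCl4, where 1.2% of all genes were called, and 0 of the 9 after oil, where 4.11% were called. The difference between the knockout and wild-type responses to CCl4 called 0 of the 9, where 0.101% of all genes were called. At an unadjusted p under 0.05 there was 1 gene in each of these genotype comparisons, Hsd17b13 after CCl4, beside 2818 of all 16866 genes, and Ctsc after oil, beside 3368. For the difference between responses there was also 1, Ctsc, beside 2318 of all genes. Without libraries 1 and 5 together, 2 of the 9 passed after CCl4 in wild-type livers, Aldh1b1 and Cdh1, where the number of all genes called was 2231, against 1431 with all libraries. Between genotypes, Gls2 passed after CCl4, where 968 of all genes were called, against 202 with all libraries. Aldh1b1 passed after oil, where 768 of all genes were called, against 694 with all libraries. DESeq2 and limma-voom also called 0 of the 9 in the knockout CCl4 comparison, in both genotype comparisons and for the difference between responses. The authors' deposited table gave Aldh1b1 in wild-type livers as the only one of the 9 past 0.05, with a log2 ratio of CCl4 over oil of 1.65 and an adjusted p of 0.00167.

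**Figure D1:**
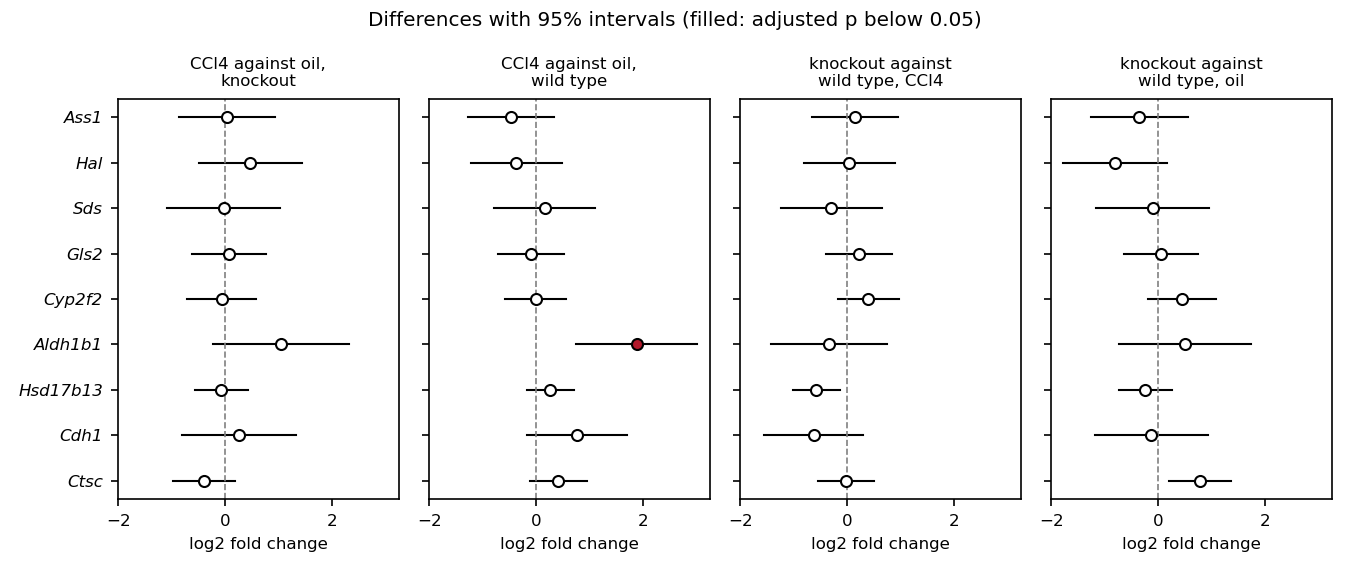
Log2 fold change of each of the 9 genes (rows) in the knockout CCl4, wild-type CCl4, post-CCl4 genotype and post-oil genotype comparisons (panels), with lines for 95% intervals and a filled point where the adjusted p was below 0.05. Aldh1b1 in wild-type livers, at 1.88, is the only filled point.

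Groups that did not overlap at all were also counted. In wild-type livers, all 3 CCl4 libraries lay above all 3 oil libraries for Aldh1b1, Hsd17b13 and Ctsc, which is 3 of 9, where 28.8% of all tested genes had groups that did not overlap and 17.1% had the CCl4 group above. In knockout livers this held for Aldh1b1 alone, 1 of 9, where the share of all genes was 29.6%, and 15.6% with the CCl4 group above. Between the genotypes it held for Hsd17b13 after CCl4, where the share of all genes was 20.7%, and 11.4% with the knockout group below, and for Ctsc and Hal after oil, where it was 38.9%. In either direction, the share among the 9 was near or below that of all genes in each comparison.

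**Figure D2:**
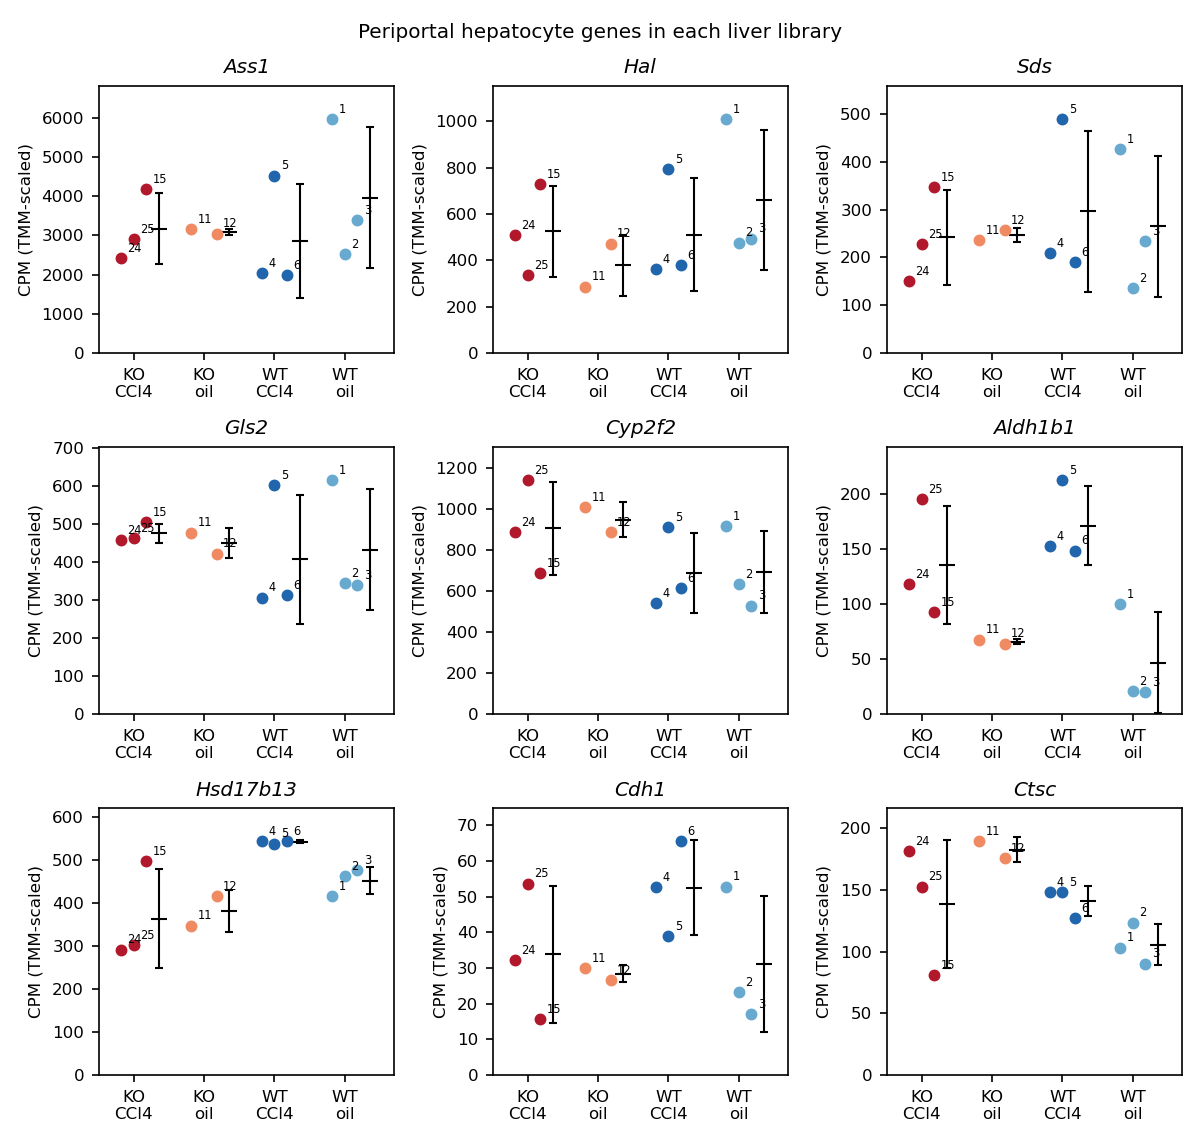
TMM-scaled CPM of the 9 genes (panels) in every library, in the group order knockout CCl4, knockout oil, wild type CCl4 and wild type oil; points are libraries with their numbers, and bars are the group mean and SD (n = 3, 2, 3 and 3). Library 1 of the wild-type oil group and library 5 of the wild-type CCl4 group are the highest of their groups for Ass1, Hal, Sds, Gls2, Cyp2f2 and Aldh1b1.

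Aldh1b1 encodes a mitochondrial aldehyde dehydrogenase that oxidises acetaldehyde and other aldehydes. It lies at chr4:45799022-45804604 (GRCm38, plus strand), and its longest annotated transcript has 2 exons. Aldh1b1 was at 118, 195 and 92.5 CPM in CCl4-treated knockout livers, 67.6 and 64.0 CPM in oil-treated knockout livers, 152, 213 and 148 CPM in CCl4-treated wild-type livers and 99.8, 20.7 and 19.8 CPM in oil-treated wild-type livers. Every CCl4 library lay above every oil library of its own genotype, and libraries 2 and 3 of the wild-type oil group were the lowest of the 11. Library 1 of that group was far above its companions and lay within the knockout CCl4 range. Means were 135 ± 53.5 CPM in CCl4-treated knockout livers, 65.8 ± 2.55 CPM in oil-treated knockout livers, 171 ± 36.1 CPM in CCl4-treated wild-type livers and 46.7 ± 45.9 CPM in oil-treated wild-type livers (SD; n = 3, 2, 3 and 3). In wild-type livers the log2 fold change was 1.88 ± 0.52 (SE), with a 95% interval of 0.75 to 3.01 and an adjusted p of 0.0442. In knockout livers it was 1.04 ± 0.58, with an interval of -0.23 to 2.31 and an adjusted p of 0.491, so a rise of the wild-type size was within the interval. The difference between these responses, knockout minus wild type, was -0.84 ± 0.76 and did not pass the test (adjusted p = 0.685).

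The call for Aldh1b1 rested on few libraries. Leaving out library 2 or 3 of the oil group gave a log2 fold change of 1.52 or 1.54, with an adjusted p of 0.129 or 0.142. Leaving out library 4, 5 or 6 of the CCl4 group gave 1.96, 1.73 or 1.97, with an adjusted p of 0.0975, 0.0665 or 0.103. Without library 1, the oil library that stood apart, the log2 fold change was 3.08 and the adjusted p 0.000880. The genotype difference after oil was 1.70 without library 1 and passed (adjusted p = 0.0184), where with all libraries it was 0.50 ± 0.57 (adjusted p = 0.683). Without libraries 1 and 5 together, an alternative chosen after seeing the data, Aldh1b1 again passed between genotypes after oil, with a log2 fold change of 1.70 and an adjusted p of 0.0154. Without these libraries the difference between the knockout and wild-type responses was -1.86, with an adjusted p of 0.0380. With an offset for GC content, also chosen after seeing the data, the wild-type response was 1.91 with an adjusted p of 0.0207.

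Among 8 mitochondrial aldehyde dehydrogenase genes, 2 rose after CCl4 in wild-type livers, Aldh1b1 itself and Aldh18a1, and 0 fell. In that comparison 6.98% of all tested genes were called higher and 1.51% lower. Aldh18a1, which makes the proline precursor pyrroline-5-carboxylate, was at 6.73, 3.66 and 7.63 CPM in CCl4-treated and 2.61, 1.60 and 1.27 CPM in oil-treated wild-type livers, with a log2 fold change of 1.73 and an adjusted p of 0.0355. Aldh2, the main acetaldehyde-clearing enzyme of the liver, had a log2 fold change of -0.15 there and did not pass (adjusted p = 0.649). None of the 8 passed after CCl4 in knockout livers or in either genotype comparison. Stellate cell and fibroblast markers were also higher after CCl4 in wild-type livers, where 8 of 9 were called. Their summed level was 2271, 1017 and 2745 CPM in CCl4-treated and 446, 504 and 425 CPM in oil-treated wild-type livers. In the wild-type CCl4 group, library 5 had the highest Aldh1b1 and the lowest sum. In the wild-type oil group, library 1 had the highest Aldh1b1, with a sum between those of libraries 2 and 3. In knockout livers the sum was 910.1, 984 and 705 CPM after CCl4 and 529.8 and 479 CPM after oil. Within each knockout group the libraries had the same order by this sum as by Aldh1b1. The part of these cells in the Aldh1b1 values was not tested.

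RefSeq (GRCm38.p6) held a promoter for 6 of the 9 genes, namely Cyp2f2, Hal, Hsd17b13, Ctsc, Ass1 and Aldh1b1, each running from 250 bases before to 50 bases after the start. The promoter of the called gene, Aldh1b1, is shown with those of Ass1 and Hal, the pair of amino acid genes with entries whose levels moved together across libraries. The intervals are chr4:45798772-45799071, chr2:31470020-31470319 and chr10:93488518-93488817, all on the plus strand, and capitals mark motif matches.
Aldh1b1: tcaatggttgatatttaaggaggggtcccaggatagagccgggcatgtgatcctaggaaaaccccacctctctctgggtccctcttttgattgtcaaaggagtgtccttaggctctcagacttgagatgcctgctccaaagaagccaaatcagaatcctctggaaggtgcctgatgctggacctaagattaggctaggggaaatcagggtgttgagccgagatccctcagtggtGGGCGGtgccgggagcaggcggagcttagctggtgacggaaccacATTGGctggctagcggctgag
Ass1: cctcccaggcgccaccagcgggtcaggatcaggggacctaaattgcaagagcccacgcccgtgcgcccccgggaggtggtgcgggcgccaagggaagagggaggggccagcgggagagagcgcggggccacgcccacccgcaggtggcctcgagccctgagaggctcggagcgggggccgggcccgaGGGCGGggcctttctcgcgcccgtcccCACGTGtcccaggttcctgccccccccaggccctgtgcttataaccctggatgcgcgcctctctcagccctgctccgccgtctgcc
Hal: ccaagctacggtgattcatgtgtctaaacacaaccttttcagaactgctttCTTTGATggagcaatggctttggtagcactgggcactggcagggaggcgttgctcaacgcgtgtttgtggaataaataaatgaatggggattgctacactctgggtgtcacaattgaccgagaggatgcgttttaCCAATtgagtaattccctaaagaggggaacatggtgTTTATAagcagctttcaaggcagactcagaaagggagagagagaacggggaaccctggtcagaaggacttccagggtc
In all, 8 motifs were searched on both strands, and no match overlapped another. Core promoter elements were the TATA box, spelled TATAAA, the box with the letters CCAAT, and the GC-rich Sp1 box, spelled GGGCGG. The core of Wnt-responsive TCF/LEF sites was spelled CTTTGAT, and the E-box that clock and Myc proteins bind was spelled CACGTG. The full cAMP response element was spelled TGACGTCA. The D-box of the PAR bZIP factors was spelled TTATGTAA, and the element of the hepatocyte factor HNF4 was spelled CAAAGTCCA. Aldh1b1 held a GC box starting 16 bases before the start and a reversed CCAAT box 30 bases after it. Ass1 held a GC box at 63 bases and an E-box at 36 bases before the start. Hal held a reversed TATA box at 28 bases, a CCAAT box at 64 bases and a TCF/LEF core at 199 bases before the start. Of 32851 promoters of the same length, 13.6% held the TATA letters, 37.4% the CCAAT letters, 35.7% the GC box, 3.73% the TCF/LEF core and 7.15% the E-box. The remaining motifs, found in 1.79%, 0.938% and 0.475% of promoters for the cAMP response element, the D-box and the HNF4 element, matched none of the 6. These matches describe letters in the window and not bound sites.

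Ass1, Hal, Sds and Gls2 release or dispose of amino acid nitrogen, and none of them passed the test in any comparison. In wild-type livers the libraries of each group lay far apart for all 4 genes. Ass1 encodes argininosuccinate synthetase, the urea cycle enzyme that joins citrulline and aspartate, and lies at chr2:31470207-31520672 with 16 exons in its longest transcript. Ass1 was at 2424, 2906 and 4172 CPM in CCl4-treated knockout livers, 3149 and 3042 CPM in oil-treated knockout livers, 2044, 4519 and 1985 CPM in CCl4-treated wild-type livers and 5969, 2528 and 3392 CPM in oil-treated wild-type livers. The highest values came from library 1 of the wild-type oil group, library 5 of the wild-type CCl4 group and library 15 of the knockout CCl4 group, and the groups overlapped in every comparison. The log2 fold change after CCl4 was 0.033 ± 0.42 in knockout livers (interval -0.87 to 0.94) and -0.48 ± 0.37 in wild-type livers (interval -1.28 to 0.33, adjusted p = 0.483). The genotypes differed by 0.15 ± 0.37 after CCl4 and -0.36 ± 0.42 after oil, knockout over wild type.

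Hal encodes histidine ammonia lyase, which takes the amino group off histidine as the first step of its breakdown, and lies at chr10:93488768-93519304. Hal was at 509.9, 336 and 729 CPM in CCl4-treated knockout livers, 286 and 472 CPM in oil-treated knockout livers, 361, 794 and 378 CPM in CCl4-treated wild-type livers and 1011, 477 and 494 CPM in oil-treated wild-type livers. Library 1 was again the highest of the 11, and both oil-treated knockout libraries lay below all 3 oil-treated wild-type libraries, by little for library 12. Knockout against wild type after oil was -0.80 ± 0.45 on the log2 scale, with an interval of -1.77 to 0.17 and an adjusted p of 0.349. After CCl4 the log2 fold change was 0.47 ± 0.44 in knockout livers and -0.37 ± 0.39 in wild-type livers, with adjusted p-values of 0.729 and 0.620.

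Sds encodes serine dehydratase, which turns serine into pyruvate and ammonia, and lies at chr5:120476526-120483932. Sds was at 151, 229 and 347 CPM in CCl4-treated knockout livers, 236 and 258 CPM in oil-treated knockout livers, 209.6, 490.4 and 190.2 CPM in CCl4-treated wild-type livers and 427, 137 and 234 CPM in oil-treated wild-type livers. The 2 oil-treated knockout libraries lay inside the range of each of the other 3 groups, and library 5 was the highest of all. The log2 fold change after CCl4 was -0.029 ± 0.49 in knockout livers and 0.16 ± 0.44 in wild-type livers, with intervals of -1.09 to 1.03 and -0.79 to 1.11. Sds shares 360 exonic bases with the antisense gene Plbd2 and 141 with Gm15690, and the counts of Plbd2 were 0.410 to 0.666 of those of Sds across libraries.

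Gls2 encodes the liver-type mitochondrial glutaminase, which frees ammonia from glutamine for the urea cycle, and lies at chr10:128194457-128210004. Gls2 was at 458, 464 and 505 CPM in CCl4-treated knockout livers, 477 and 423 CPM in oil-treated knockout livers, 306, 603 and 312 CPM in CCl4-treated wild-type livers and 617, 344 and 339 CPM in oil-treated wild-type livers. All 5 knockout libraries fell within a narrow band, and in wild-type livers libraries 5 and 1 stood far above the others of their groups. The log2 fold change after CCl4 was 0.080 ± 0.32 in knockout livers, with an interval of -0.61 to 0.77. In wild-type livers it was -0.090 ± 0.29, with an interval of -0.71 to 0.53. Without libraries 1 and 5 together, Gls2 passed between genotypes after CCl4, at 0.61 with an adjusted p of 0.0298, where with all libraries it was 0.22 with an adjusted p of 0.749. Gls2 shares 97 exonic bases with Spryd4, whose counts were 0.0609 to 0.135 of those of Gls2.

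The pathways around these 4 genes gave few calls. Of 8 urea cycle and carrier genes, 0 were called in any of the comparisons. The smallest adjusted p was that of Otc, ornithine transcarbamylase, at 0.0833 between genotypes after oil, with a log2 fold change of 0.63. Asl, which splits the argininosuccinate that Ass1 makes, was at 565, 1527 and 521 CPM in CCl4-treated and 2456, 955 and 1537 CPM in oil-treated wild-type livers, with a log2 fold change of -0.92 and an adjusted p of 0.361. Cps1, the mitochondrial entry enzyme of the cycle, had a log2 fold change of -0.56 in that comparison and did not pass (adjusted p = 0.327). Of 4 histidine breakdown genes, 0 were called in any comparison. Of 15 amino acid breakdown genes, 2 were called, both between genotypes after oil, where 4.11% of all tested genes were called. Prodh, proline dehydrogenase, was higher in knockout livers, at 352 and 299.5 CPM against 175, 145 and 153 CPM in wild-type livers (log2 fold change 1.05, adjusted p = 0.0216). Gldc, of the glycine cleavage system, was lower in knockout livers, at 145 and 149 CPM against 381, 263 and 269 CPM in wild-type livers (log2 fold change -1.05, adjusted p = 0.0493).

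The libraries that were high for Ass1, Hal, Sds and Gls2 were high for these pathways too, in lists that partly hold the same genes. Ass1 is one of the 8 urea cycle genes, and Sds and Gls2 are among the 15 amino acid breakdown genes. Tat is counted both there and among the unzonated genes. Library 5 was the highest of the 3 wild-type CCl4 libraries for 6 of the 9 periportal genes, 7 of 8 urea cycle genes and 14 of 15 amino acid breakdown genes, beside 36.8% of all tested genes. Library 1 was the highest of the 3 wild-type oil libraries for 7 of the 9, 7 of 8 urea cycle genes, 13 of 15 amino acid breakdown genes and 9 of 9 unzonated hepatocyte genes, beside 42.5% of all tested genes. Among 14 pericentral genes, library 5 was the highest of its group for 7 and library 1 the highest of its group for 1, and library 5 was the highest for 7 of 9 unzonated genes. Library 15 was the highest of the 3 knockout CCl4 libraries for 5 of the 9, 6 of 8 urea cycle genes and 12 of 15 amino acid breakdown genes, beside 36.3% of all tested genes. It was the highest for 4 of 9 unzonated genes. Deviations over all genes rose with GC content in libraries 1 and 5 and fell with it in library 15 (rho -0.321). In library 5, a curve on GC content gave 0.11 of a log2 deviation of 0.54 for Ass1, 0.026 of 0.68 for Hal, 0.143 of 0.999 for Sds and 0.14 of 0.49 for Gls2. In library 1 it gave 0.17 of 0.94 for Ass1, 0.059 of 1.03 for Hal, 0.19 of 0.80 for Sds and 0.18 of 0.52 for Gls2.

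**Figure D3:**
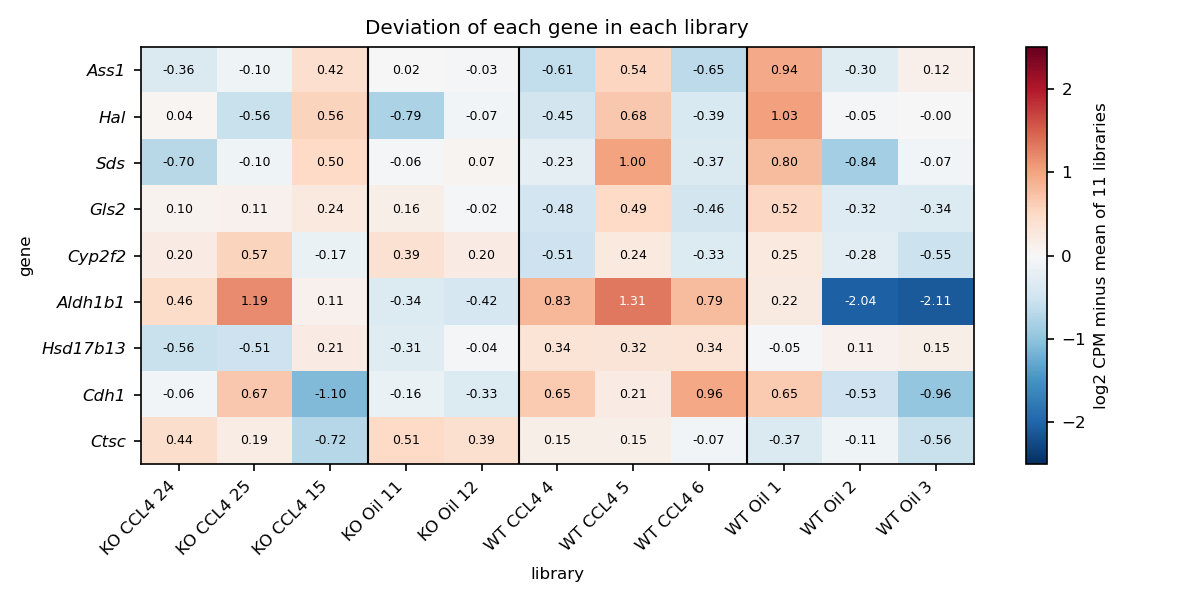
Deviation of each of the 9 genes (rows) in each library (columns, with lines between knockout CCl4, knockout oil, wild type CCl4 and wild type oil) from its mean log2 CPM over 11 libraries. Ass1, Hal, Sds and Gls2 are high together in wild-type libraries 5 and 1 and in knockout library 15, and Aldh1b1 is lowest in wild-type oil libraries 2 and 3, at -2.04 and -2.11.

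Cyp2f2 encodes a cytochrome P450 of periportal hepatocytes, also known from airway club cells, where it activates naphthalene. It lies at chr7:27119909-27133660. Cyp2f2 was at 887, 1144 and 688 CPM in CCl4-treated knockout livers, 1009 and 889 CPM in oil-treated knockout livers, 541, 912 and 613 CPM in CCl4-treated wild-type livers and 919, 635 and 529 CPM in oil-treated wild-type livers. The CCl4 and oil groups overlapped in each genotype, and all 5 knockout libraries lay above 4 of the 6 wild-type libraries. The log2 fold change after CCl4 was -0.067 ± 0.30 in knockout livers (interval -0.71 to 0.57) and -0.011 ± 0.26 in wild-type livers (interval -0.58 to 0.56). Its sign in wild-type livers turned under 7 of 16 alternatives, upper quartile scaling among them. Knockout against wild type was 0.40 ± 0.26 after CCl4 and 0.45 ± 0.29 after oil, with adjusted p-values of 0.496 and 0.428. Cyp2f2 shares 274 exonic bases with the antisense gene Gm15883, whose counts were 0.297 to 0.322 of those of Cyp2f2 in every library. The sources used here do not say whether counting used the strand, so the reads of a gene and its antisense partner cannot be told apart.

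The pericentral genes gave other counts in the same libraries. After CCl4 in wild-type livers, 8 of 14 pericentral genes fell and 0 rose, against 0 of 9 periportal genes that fell, where 1.51% of all tested genes were called lower. Cyp2e1 was at 2777, 5454 and 3221 CPM in CCl4-treated and 8992, 9949 and 11563 CPM in oil-treated wild-type livers, and fell by 1.41 on the log2 scale (adjusted p = 0.0135). Glul, glutamine synthetase, was at 135, 249 and 151 CPM in CCl4-treated and 867, 1081 and 1174 CPM in oil-treated wild-type livers, and fell by 2.55 (adjusted p = 0.000339). For both genes the groups did not overlap, and library 5 was the highest of the CCl4 group. Oat, ornithine aminotransferase, was at 55.3, 376 and 63.9 CPM in CCl4-treated and 2589.9, 1834 and 2617 CPM in oil-treated wild-type livers, and library 5 was again the highest of its group. The median log2 fold change was -1.28 over the 14 pericentral genes and 0.16 over the 9 periportal genes, and no test was run between the lists. Lists close to the 9 had medians below 0 in that comparison. The median was -0.29 over 13 other periportal genes and -0.47 over 8 urea cycle genes. It was -0.37 over 15 amino acid breakdown genes and -0.31 over 9 unzonated hepatocyte genes. In knockout livers 0 of 14 pericentral genes were called after CCl4. Between genotypes after CCl4, where 0.308% of all tested genes were called higher, 3 of 14 were higher in knockout livers, namely Rhbg (2.86), an ammonia transporter, Glul (2.20) and Lgr5 (1.07), an R-spondin receptor of the Wnt pathway. Of 13 other periportal genes, 0 were called after CCl4 in wild-type livers. G6pc, the last enzyme of glucose release, was called in knockout livers after CCl4, where it was at 344, 729 and 753 CPM against 84.4 and 48.2 CPM after oil (log2 fold change 3.20, adjusted p = 0.0332). G6pc was also lower in oil-treated knockout than in oil-treated wild-type livers, where it was at 1078, 566 and 434 CPM (log2 fold change -3.38, adjusted p = 0.0117).

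**Figure D4:**
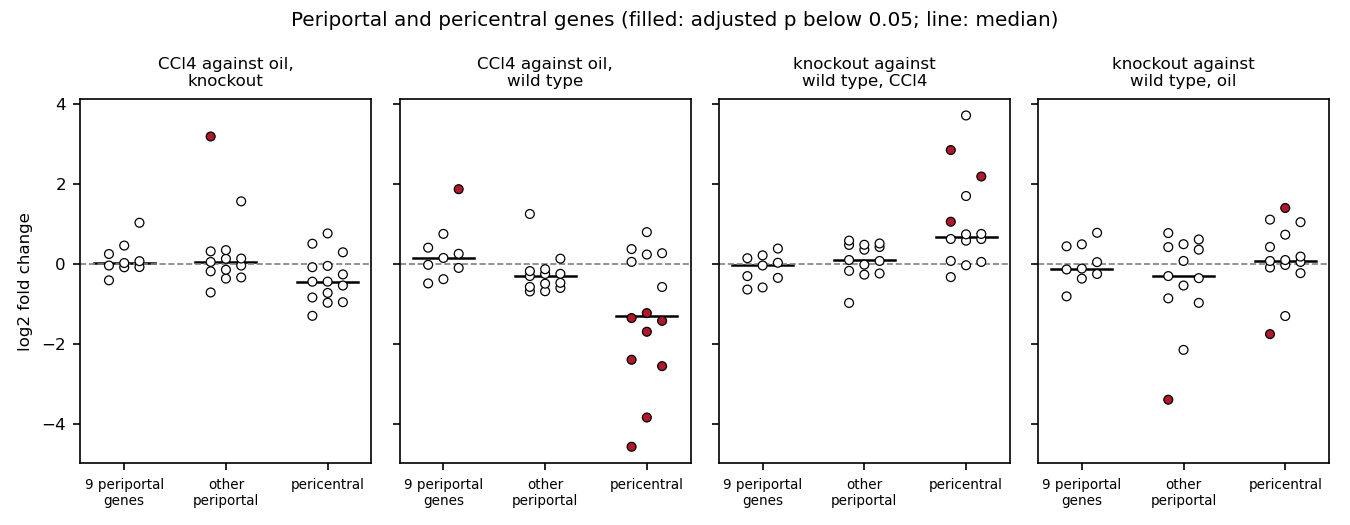
Log2 fold changes of the 9 periportal genes, 13 other periportal genes and 14 pericentral genes (points) in the knockout CCl4, wild-type CCl4, post-CCl4 genotype and post-oil genotype comparisons (panels); filled points had an adjusted p below 0.05 and lines are medians. In wild-type livers after CCl4, 8 of 14 pericentral genes are filled below 0, and 1 of 9 periportal genes, Aldh1b1, is filled above it.

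Ratios within a library carry no scaling between libraries. Per kilobase of exon, the ratio of Cyp2f2 to Cyp2e1 was 0.164, 0.254 and 0.0829 in CCl4-treated knockout livers, 0.132 and 0.101 in oil-treated knockout livers, 0.208, 0.178 and 0.203 in CCl4-treated wild-type livers and 0.109, 0.0680 and 0.0488 in oil-treated wild-type livers. All 3 CCl4-treated wild-type libraries lay above all 3 oil-treated ones, whereas the knockout groups overlapped. The ratio of Gls2 to Glul was 0.478, 0.512 and 0.719 in CCl4-treated knockout livers, 0.465 and 0.330 in oil-treated knockout livers, 2.17, 2.32 and 1.97 in CCl4-treated wild-type livers and 0.680, 0.304 and 0.276 in oil-treated wild-type livers. The CCl4-treated wild-type libraries stood above all 8 others, and all 3 CCl4-treated knockout libraries lay above both oil-treated knockout libraries, by little for library 24. The numerators Cyp2f2 and Gls2 had log2 fold changes near 0 in wild-type livers, and the denominators fell. With 3 libraries against 3, an exact permutation test cannot give a p below 0.10, so none is given, and Glul overlaps the genes Teddm2 and Mir8114.

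**Figure D5:**
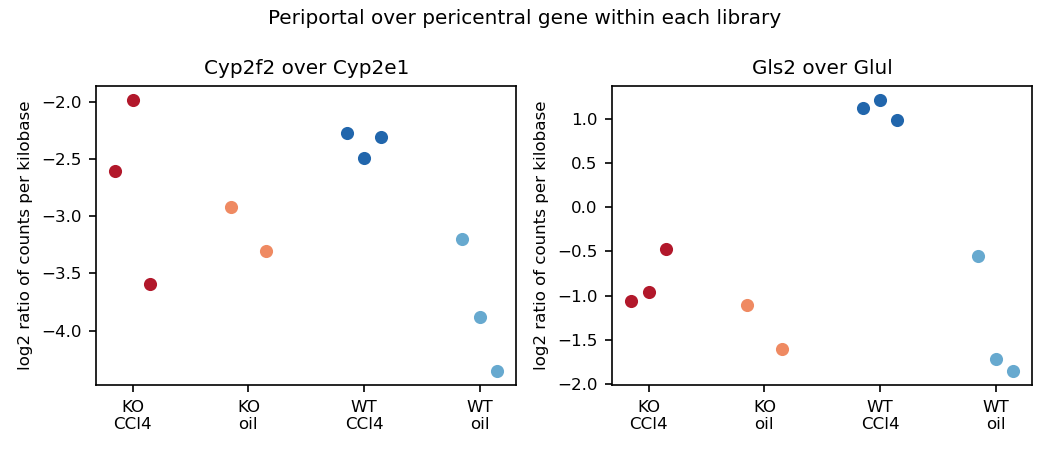
Log2 ratio of counts per kilobase of a periportal over a pericentral gene (Cyp2f2 over Cyp2e1, left; Gls2 over Glul, right) in each library (points), by group from knockout CCl4 to wild type oil. For Gls2 over Glul the 3 wild-type CCl4 libraries lie between 0.98 and 1.21, and all others lie below 0.

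Hsd17b13 encodes a hydroxysteroid dehydrogenase family protein that sits on lipid droplets of hepatocytes and, in human, has retinol dehydrogenase activity. It lies at chr5:103955440-103977410 on the minus strand. Hsd17b13 was at 292, 302 and 497 CPM in CCl4-treated knockout livers, 348 and 417 CPM in oil-treated knockout livers, 544, 538 and 545 CPM in CCl4-treated wild-type livers and 417, 463 and 476 CPM in oil-treated wild-type livers. The CCl4-treated wild-type libraries were within a few CPM of each other and above all 8 others, and knockout libraries 24 and 25 were the lowest. Means were 364 ± 116 CPM in CCl4-treated knockout livers and 543 ± 3.69 CPM in CCl4-treated wild-type livers (SD, n = 3 each). Knockout against wild type after CCl4 was -0.58 ± 0.20 on the log2 scale, with an interval of -1.02 to -0.14, and did not pass after adjustment over all genes (adjusted p = 0.178). Without library 15 it was -0.87 and passed (adjusted p = 0.0196). The knockout group then held only libraries 24 and 25, which have an E before their number while the other 9 libraries have an S. The sources used here do not say what the letters mean, so genotype and whatever they stand for cannot be told apart in that fit. After CCl4 the log2 fold change was -0.073 ± 0.23 in knockout livers and 0.26 ± 0.20 in wild-type livers, and after oil the genotypes differed by -0.24 ± 0.23, none of which passed.

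Of 11 lipid droplet protein genes, Hsd17b13 among them, 3 fell in oil-treated knockout livers relative to oil-treated wild-type livers and 0 rose, where 1.92% of all tested genes were called lower. Plin2, the main droplet coat protein of hepatocytes, was at 178 and 246 CPM in oil-treated knockout livers and 955, 1149.6 and 1178 CPM in oil-treated wild-type livers (log2 fold change -2.37, adjusted p = 0.00379). Plin4 had a log2 fold change of -2.90 and Cidec, which fuses droplets, of -3.96, with adjusted p-values of 0.00626 and 0.0189. Plin4 and Cidec also fell after CCl4 in wild-type livers, by 1.60 and 2.05 on the log2 scale, with adjusted p-values of 0.0138 and 0.0407. None of the 11 passed after CCl4 in knockout livers or between genotypes after CCl4. Hsd17b11, the closest relative of Hsd17b13 on the list, had log2 fold changes of -0.41 after CCl4 and -0.41 after oil between genotypes.

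Cdh1 encodes E-cadherin, the adhesion molecule of adherens junctions, which periportal hepatocytes and bile duct cells carry. It lies at chr8:106603351-106670246, with 16 exons in its longest transcript. Cdh1 was at 32.1, 53.7 and 15.6 CPM in CCl4-treated knockout livers, 30.0 and 26.6 CPM in oil-treated knockout livers, 52.7, 39.0 and 65.6 CPM in CCl4-treated wild-type livers and 52.8, 23.2 and 17.1 CPM in oil-treated wild-type livers. Library 15 was the lowest of all, library 6 of the wild-type CCl4 group was the highest, and library 1 of the oil group stood as high as library 4. The log2 fold change after CCl4 was 0.26 ± 0.49 in knockout livers, with an interval of -0.81 to 1.32. In wild-type livers it was 0.76 ± 0.43, with an interval of -0.17 to 1.69 and an adjusted p of 0.312. Without libraries 1 and 5 together it was 1.55 in wild-type livers and passed (adjusted p = 0.0360). Between genotypes it was -0.63 ± 0.43 after CCl4 and -0.13 ± 0.49 after oil, and neither passed.

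Of 6 cadherin and catenin genes, 0 were called in any comparison, and Ctnnb1, which encodes the junction protein and Wnt effector beta-catenin, had a log2 fold change of 0.16 after CCl4 in knockout livers and 0.055 in wild-type livers. Bile duct markers are given beside Cdh1, since bile duct cells express it. Of 9 listed, 8 were in the table and 6 passed the filter. Spp1, also made by macrophages, was the 1 called higher after CCl4 in wild-type livers (1.61, adjusted p = 0.0287). In that comparison 6.98% of all tested genes were called higher. The summed level of the 8 was 49.9 to 70.7 CPM in CCl4-treated knockout livers, 33.9 to 40.5 CPM in oil-treated knockout livers, 55.0 to 123 CPM in CCl4-treated wild-type livers and 32.8 to 53.6 CPM in oil-treated wild-type livers. Spp1 made up most of these sums, with means of 36.9 of 59.0 CPM in CCl4-treated knockout livers, 22.5 of 37.2 CPM in oil-treated knockout livers, 72.7 of 94.5 CPM in CCl4-treated wild-type livers and 23.6 of 40.9 CPM in oil-treated wild-type livers. Cftr was at 0 in both oil-treated knockout libraries. The defining marker Krt19 was at 2.90, 1.81 and 2.21 CPM in CCl4-treated knockout livers, 0.431 and 0.815 CPM in oil-treated knockout livers, 1.13, 0.698 and 1.22 CPM in CCl4-treated wild-type livers and 2.27, 1.45 and 0.487 CPM in oil-treated wild-type livers. Epcam, another marker, was at 1.35, 1.40 and 2.11 CPM in CCl4-treated and 0.574 and 0.408 CPM in oil-treated knockout livers. In wild-type livers Epcam was at 1.70, 2.18 and 3.01 CPM after CCl4 and 1.02, 0.838 and 1.17 CPM after oil. The median log2 fold change of the 6 tested markers after CCl4 was 1.11 in knockout and 0.59 in wild-type livers. Over all tested genes it was 0.015 and -0.019. The part of these cells in the Cdh1 values was not tested.

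Ctsc encodes cathepsin C, a lysosomal dipeptidyl peptidase that activates serine proteases of immune cells, and macrophages express it as well as hepatocytes. It lies at chr7:88278085-88310888. Ctsc was at 181, 153 and 81.1 CPM in CCl4-treated knockout livers, 189.8 and 175 CPM in oil-treated knockout livers, 148, 148 and 127 CPM in CCl4-treated wild-type livers and 103, 123 and 90.3 CPM in oil-treated wild-type livers. Both oil-treated knockout libraries stood above all 3 oil-treated wild-type libraries, and library 15 was the lowest of the 11. Means were 183 ± 10.1 CPM in oil-treated knockout livers (SD, n = 2) and 106 ± 16.7 CPM in oil-treated wild-type livers (SD, n = 3). Knockout against wild type after oil was 0.79 ± 0.27 on the log2 scale, with an interval of 0.21 to 1.37, and did not pass after adjustment over all genes (adjusted p = 0.116). In a fit of only these 2 groups it was 0.80 and passed (adjusted p = 0.0433). With the offset for GC content it was 0.56 (adjusted p = 0.301), and Ctsc had the lowest GC content of the 9 at 41.1% of its longest transcript.

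After CCl4 the log2 fold change of Ctsc was -0.40 ± 0.27 in knockout livers and 0.42 ± 0.24 in wild-type livers. The difference between these responses, knockout minus wild type, was -0.82 ± 0.36, with an interval of -1.60 to -0.034 and an adjusted p of 0.345. Without both of the E-numbered knockout CCl4 libraries, 24 and 25, it was -1.56 with an adjusted p of 0.0367, a fit in which library 15 stood alone for its group and was assumed to vary like the others. Of 10 cysteine cathepsin genes, 2 rose after CCl4 in wild-type livers, where 6.98% of all tested genes were called higher, and 0 fell. Ctsk was at 8.49, 3.58 and 9.14 CPM in CCl4-treated and 0.568, 1.22 and 1.07 CPM in oil-treated wild-type livers (log2 fold change 2.84, adjusted p = 0.00183). Ctss, a cathepsin of antigen-presenting cells, was at 132, 73.9 and 117 CPM after CCl4 and 43.7, 55.2 and 37.6 CPM after oil in wild-type livers (log2 fold change 1.24, adjusted p = 0.0107). No cathepsin gene was called after CCl4 in knockout livers or in either genotype comparison.

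Macrophage markers are given beside Ctsc. All 13 were tested, and 7 were called higher after CCl4 in wild-type livers, where 6.98% of all tested genes were called higher. Their summed level was 460.1 to 802 CPM in CCl4-treated knockout livers, 693 to 873 CPM in oil-treated knockout livers, 926 to 1342 CPM in CCl4-treated wild-type livers and 459 to 643 CPM in oil-treated wild-type livers. None of the 13 was called between genotypes after oil, where both sums in knockout livers lay above all 3 in wild-type livers, as did the Ctsc values. CCl4-treated wild-type livers had the highest sums, but their Ctsc (127 to 148 CPM) lay below that of oil-treated knockout livers (175 to 190 CPM). Among CCl4-treated knockout libraries, 24 had a sum of 529 CPM with Ctsc at 181 CPM, and 25 a sum of 802 CPM with Ctsc at 153 CPM. The part of macrophages in the Ctsc values was not tested.

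Per kilobase of exon, averaged over 11 libraries, Ass1 was the highest of the 9 at 1361 CPM per kilobase. It was followed by Cyp2f2 at 394, Hsd17b13 at 204, Sds at 156, Gls2 at 127, Hal at 95.8, Aldh1b1 at 47.1, Ctsc at 23.8 and Cdh1 at 8.12 CPM per kilobase. Ass1 was above Cyp2f2, Cyp2f2 above Hsd17b13, and Ctsc above Cdh1 in all 11 libraries. The neighbours in between changed places in some libraries. Gls2 was above Hal in 10 of 11, and Hsd17b13 was above Sds, Sds above Gls2 and Hal above Aldh1b1 in 9 of 11 each. Aldh1b1 was above Ctsc in 7 of 11. On the log2 scale, the difference between neighbours was smaller than its SD over libraries for Hsd17b13 and Sds (0.46 against 0.57), Sds and Gls2 (0.23 against 0.40), Hal and Aldh1b1 (1.26 against 1.28) and Aldh1b1 and Ctsc (0.70 against 1.10).

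The spread within groups also differed among the 9. The pooled within-group SD of log2 CPM was 0.78 for Aldh1b1, 0.68 for Cdh1 and 0.68 for Sds, larger than that of 95.3%, 91.8% and 91.5% of tested genes. It was smallest for Hsd17b13, at 0.25, larger than that of 38.0% of tested genes, beside a median of 0.30 over all of them. The highest library exceeded the lowest 10.8-fold for Aldh1b1 and 1.87-fold for Hsd17b13.

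Likeness between patterns was measured as the root mean square difference of log2 CPM over the 11 libraries after centring each gene, so a smaller value is more alike. Within the 9, the closest pairs were Cyp2f2 and Gls2 (0.25), Gls2 and Ass1 (0.26), Sds and Ass1 (0.29) and Hal and Ass1 (0.34). The measure grows with a gene's own spread, so each gene was also set against a flat pattern. Aldh1b1 was at 0.80 from its nearest of the 9, Cdh1, and at 1.11 from a flat pattern, whereas Hsd17b13 was at 0.53 from its nearest, Gls2, and at 0.31 from a flat pattern. Among 12644 genes outside the 9 with a mean of at least 1 CPM, the most like Cyp2f2 were Tmem86b (0.13) and Gcat (0.15), and the most like Gls2 were Mettl8 (0.16) and Adssl1 (0.16). For Hal they were Fbxo44 (0.22) and Amdhd1 (0.22), which acts later in histidine breakdown. For Ass1 they were Ctsl (0.19) and Fuom (0.20), and for Sds Plbd2 (0.22), which overlaps it, and Klf15 (0.27). For Cdh1 they were Heyl (0.22) and Adgre1 (0.23), a macrophage marker, and for Ctsc Nr6a1 (0.15) and Sh3bp2 (0.16). Pde8b (0.15) and Casp2 (0.16) were the most like Hsd17b13. The nearest to Aldh1b1 were Fcmr (0.42) and Ttc39a (0.45). These values describe 11 libraries that include the ones standing apart, and no test was made on them.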

How the data were processed

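Liver RNA from 11 libraries was measured with a stranded total RNA kit, per the labels' protocols, whereas the series' design text speaks of capped RNA, and the difference is unresolved. The submitters' processing notes name Bowtie, DESeq2, mm10 and GRCm38 without versions. The authors counted alignments overlapping a gene's exons, pairs once, per the deposited column descriptions, which do not say whether strand was used. They deposited these raw counts per gene, and FPKM values (counts per kilobase of exon and library total), which served only as a check of the counts. The deposited log2 ratios and the deposited scores (a negative multiple of log10 of a DESeq2 adjusted p) are the authors' own comparisons. The deposited log2 ratios divide the group named first by the second and were turned here so that CCl4 over oil and knockout over wild type are positive. The authors listed genes apart without values, under headers for under 10 counts (30438) and above 50000 counts (26), and these were not analysed here. Some analysed genes still exceeded 50000 counts in single libraries, such as Ass1 at 52578 in library 1, so the headers do not give the whole rule. Marker genes of the lists that were set apart in this way include Ahsg and Fgb (above) and Cidea (under). A few items are not reported here. Gene symbols were missing in 2096 lines of the table, and the reference table supplied 2069 of them.

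Library totals of 7306082 to 14116886 counts set the counting precision. No libraries were near-duplicates. Counts were tested with edgeR 4.0.16 in R 4.3.3 (quasi-likelihood test, TMM scaling, filterByExpr with a minimum count of 10 and total of 15, which kept 16866 genes and removed 2341). The fit held 4 group means over 11 libraries, and p-values were Benjamini-Hochberg adjusted over all tested genes for each of 5 comparisons. Intervals are 95%, from the fold change and its SE, and log2 CPM uses a prior count of 2. The procedure was tested on simulated data with known changes. Alternatives were other scalings, other filters, DESeq2 1.42.0, limma-voom (limma 3.58.1), fits of only the groups compared and fits leaving out libraries. A fit without libraries 1 and 5 together and an offset for GC content (a spline with 5 degrees of freedom on genes of at least 5 CPM) were added after seeing the data. The 9 genes and the gene lists were chosen with earlier results of these data known, so no list serves as independent evidence. All 9 genes are named. From each list, the genes named are up to 4 called genes with the smallest p, genes that share a pathway or complex with one of the 9, and defining markers. Coordinates and exon counts are from the GENCODE M21 annotation of GRCm38, which starts each gene 1 base after the deposited table.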

Additional observations from a re-analysis of the deposited data

How the results depend on the processing

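The 9 genes were refitted under each alternative, giving 756 log2 fold changes, of which 679 kept their direction and their side of the threshold, 62 turned sign, 8 newly passed and 7 no longer passed. No value that turned sign had an adjusted p under 0.524. The number of the 9 called after CCl4 in wild-type livers was 0 with a filter of mean 5 CPM, 0 in a fit of only the groups compared and 2 (Aldh1b1 and Cdh1) without libraries 1 and 5 together, where it was 1 in all. It ran from 0 to 1 when single libraries were left out. Between genotypes it was 0, but 1 after CCl4 without libraries 1 and 5 (Gls2), 1 after oil without them (Aldh1b1) and 1 after oil in a fit of only the groups compared (Ctsc). With single libraries left out it ran from 0 to 1 in both genotype comparisons. For the difference between responses it was 1 without libraries 1 and 5 (Aldh1b1) and 1 without libraries 24 and 25 (Ctsc). It was 0 under every alternative after CCl4 in knockout livers.

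The following log2 fold changes turned sign, none of them called, and the cause was not tested. After CCl4 in wild-type livers, Cyp2f2 was 0.033 with upper quartile scaling, 0.0032 with scaling without the 50 most abundant genes, 0.064 with a filter of mean 5 CPM and 0.011 in a fit of only the groups compared. With upper quartile scaling Hal was -0.011 between genotypes after CCl4. With limma-voom Ass1 was -0.0030 after CCl4 in knockout livers, and Sds and Cdh1 were 0.031 and 0.052 between genotypes after oil. Without libraries 1 and 5, the genotype difference after oil was 0.063 for Ass1, 0.48 for Cdh1 and 0.41 for Sds, and after CCl4 it was 0.27 for Sds. Without libraries 24 and 25, CCl4 in knockout livers gave -0.85 for Cdh1, 0.39 for Hsd17b13 and 0.50 for Sds. Those fits gave 0.23 for Sds between genotypes after CCl4, and differences between responses of 0.14 for Hsd17b13 and 0.36 for Sds.

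With single libraries left out, values after CCl4 in knockout livers ran from -0.22 to 0.19 for Ass1, -0.25 to 0.60 for Cdh1, -0.27 to 0.096 for Cyp2f2, -0.0025 to 0.18 for Gls2, -0.37 to 0.068 for Hsd17b13 and -0.38 to 0.22 for Sds. In wild-type livers they ran from -0.24 to 0.24 for Cyp2f2, -0.46 to 0.25 for Gls2, -0.81 to 0.073 for Hal and -0.38 to 0.68 for Sds. Genotype differences after CCl4 ran from -0.097 to 0.65 for Ass1, -0.27 to 0.24 for Ctsc, -0.27 to 0.50 for Hal and -0.65 to 0.27 for Sds. After oil they ran from -0.60 to 0.063 for Ass1, -0.40 to 0.48 for Cdh1, -0.086 to 0.40 for Gls2 and -0.42 to 0.41 for Sds. Differences between responses ran from -0.31 to 0.18 for Cyp2f2, -0.17 to 0.55 for Gls2 and -0.70 to 0.36 for Sds.

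Over all genes, the number called after CCl4 was 110 (9 to 388 over the alternatives) in knockout livers and 1431 (479 to 2268) in wild-type livers. Between genotypes it was 202 (14 to 968) after CCl4 and 694 (17 to 1275) after oil, and for the difference between responses 17 (0 to 364). The counts of 9 and 17 came without library 11, those of 388, 364 and 1275 with DESeq2, and that of 968 without libraries 1 and 5. With groups of 2 and 3 libraries, log2 differences under about 0.5 lay within the interval of most of the 9 genes. No paired analysis was possible because the groups have no replicate number in common.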

Other observations

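After CCl4 in wild-type livers, where 6.98% of all tested genes were called higher, 8 of 9 stellate cell and fibroblast genes rose, among them Col1a1 (5.28 on the log2 scale, adjusted p = 0.00198) and Lum (3.01, adjusted p = 0.000807), which encode a fibrillar collagen and a collagen-binding proteoglycan. All 7 cell division genes rose there, among them Cdc20 (4.47, adjusted p = 0.000987), and 7 of 13 macrophage genes rose, among them Gpnmb (5.51) and Trem2 (3.60). In knockout livers 0 genes of these 3 lists were called after CCl4, where 0.652% of all genes were called. Between genotypes after CCl4, where 1.2% of all genes were called, 5 of 7 cell division genes were lower in knockout livers, among them Cdc20 (-3.01, adjusted p = 0.0179), as were the macrophage genes Trem2 (-2.66) and Cd68 (-1.33). Of 7 endothelial genes, 0 were called in any comparison. The B cell marker Ms4a1 was higher after CCl4 in wild-type livers (2.46) and in knockout than wild-type livers after oil (1.97). Among 13 Wnt pathway genes, Dkk3 (2.28) and Wnt9b (1.79) rose after CCl4 in wild-type livers.

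Between genotypes after oil, 4.11% of all tested genes were called. Of 17 clock genes, 10 were higher and 2 lower in oil-treated knockout than in oil-treated wild-type livers, among them Per3 (3.69, adjusted p = 0.00253), a circadian repressor. After CCl4, 0 of the 17 were called between genotypes. The clock output gene Usp2 differed between the knockout and wild-type responses to CCl4 (-3.05, adjusted p = 0.0159), as did Ciart (-3.15, adjusted p = 0.0259). Of 15 genes of the glucagon, glucocorticoid and fasting response, 2 were higher and 6 lower in oil-treated knockout livers. Ehhadh, of peroxisomal fatty acid oxidation, was among the lower ones (-3.34, adjusted p = 0.0171). The time of killing and the feeding state are not given in the sources used here, and the part of either in the genotype values after oil was not tested.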
